A study of Mus musculus with 3 samples.

Results

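The heat shock proteins and chaperonins described here are the 82 genes, of 22015 nuclear protein-coding genes in the annotation, whose symbols start as Hspa, Hspb, Hspd, Hspe, Hsph, Hsp90, Dnaja, Dnajb, Dnajc or Cct2 to Cct8 do. The rule reads the symbol and the annotated type and uses no measured value. Their levels were read in 3 ribosomal-RNA-depleted total RNA libraries of the cytosolic fraction of bone-marrow-derived macrophages (BMDM), cells grown out of marrow into macrophages in culture, from C57BL/6J mice. All 3 libraries carry the same treatment: Lipid A, the part of bacterial lipopolysaccharide that Tlr4 senses, at 100 ng/ml for 12 hours, a wash-out of 12 hours, and Lipid A again at 100 ng/ml for 40 minutes. The labels give the sex and age of the mice as not collected, call the libraries biological replicates 1, 2 and 3, and give all of them 1 donor label, so whether the cultures came from separate animals is not stated. Unstimulated, singly stimulated or heat-shocked cells were not analysed here, so every value is a level under this one treatment and no test between conditions was possible. With 3 libraries, values per gene cannot reach an exact two-sided sign-flip p below 0.25, so ratios between genes are given with their spread over the libraries and no p.

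Molecular chaperones bind proteins that are not yet folded, or have unfolded, and help them fold, cross membranes or reach degradation. Hsp70 proteins do this in cycles of ATP hydrolysis that J proteins (the Dnaj genes) start and nucleotide exchange factors such as Hsp110 end; Hsp90 acts later on kinases and receptors, many of them immune signalling proteins; the chaperonins Hspd1/Hspe1 of mitochondria and CCT of the cytosol enclose a protein in a chamber. A cytosolic heat shock response is driven by the factor Hsf1 through heat shock elements in promoters, and a separate response to unfolded protein in the endoplasmic reticulum (ER) acts through ER stress elements.

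The libraries held 38197192, 46327891 and 38685666 expected counts on annotated genes in replicates 1, 2 and 3, of which the 82 genes took 0.814%, 0.848% and 0.885% of the counts on nuclear protein-coding genes. Levels are given in TPM (transcripts scaled to a fixed total per library), a unit per length that permits a comparison between genes. Nuclear protein-coding genes made up 33.3% of all TPM in replicate 1 and 28.1% and 27.7% in replicates 2 and 3, so a typical gene stood higher in replicate 1 on this scale: the median detected gene was 0.23 (log2) above the other libraries there. All 8 macrophage markers, among them Adgre1, Csf1r and Lyz2, were detected in every library, with a summed level of 4071 to 5638 TPM, whereas none of 28 markers of 7 other cell types were, with summed levels of 0.04 to 0.52 TPM per list. In bulk RNA, fewer cells of a type and less RNA per cell cannot be told apart.

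A gene was called detected at 1 TPM or more in all 3 libraries. Of the 82 members 59 were detected, beside 41.4% of all nuclear protein-coding genes. The detected members lay a little above the typical detected gene: their median level exceeded that of all 9106 detected protein-coding genes by 0.26 ± 0.060 (log2, SD, n = 3). Nearest above the threshold stood Hspbap1, at 1.59, 1.33 and 1.33 TPM in replicates 1, 2 and 3. Nearest below it were Dnajc27, at 1.07, 0.70 and 0.91 TPM, and Hspb6, at 1.02, 0.71 and 0.94 TPM. Of the 23 members that were not detected, 13 had under 10 counts in every library and 6 (Dnajb8, Dnajc5b, Dnajc5g, Dnajc22, Hspb2 and Hspb7) had none, which allows a level of up to 0.0785, 0.0648 and 0.0775 CPM (3 counts in each library; counting error only).

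**Figure D1:**
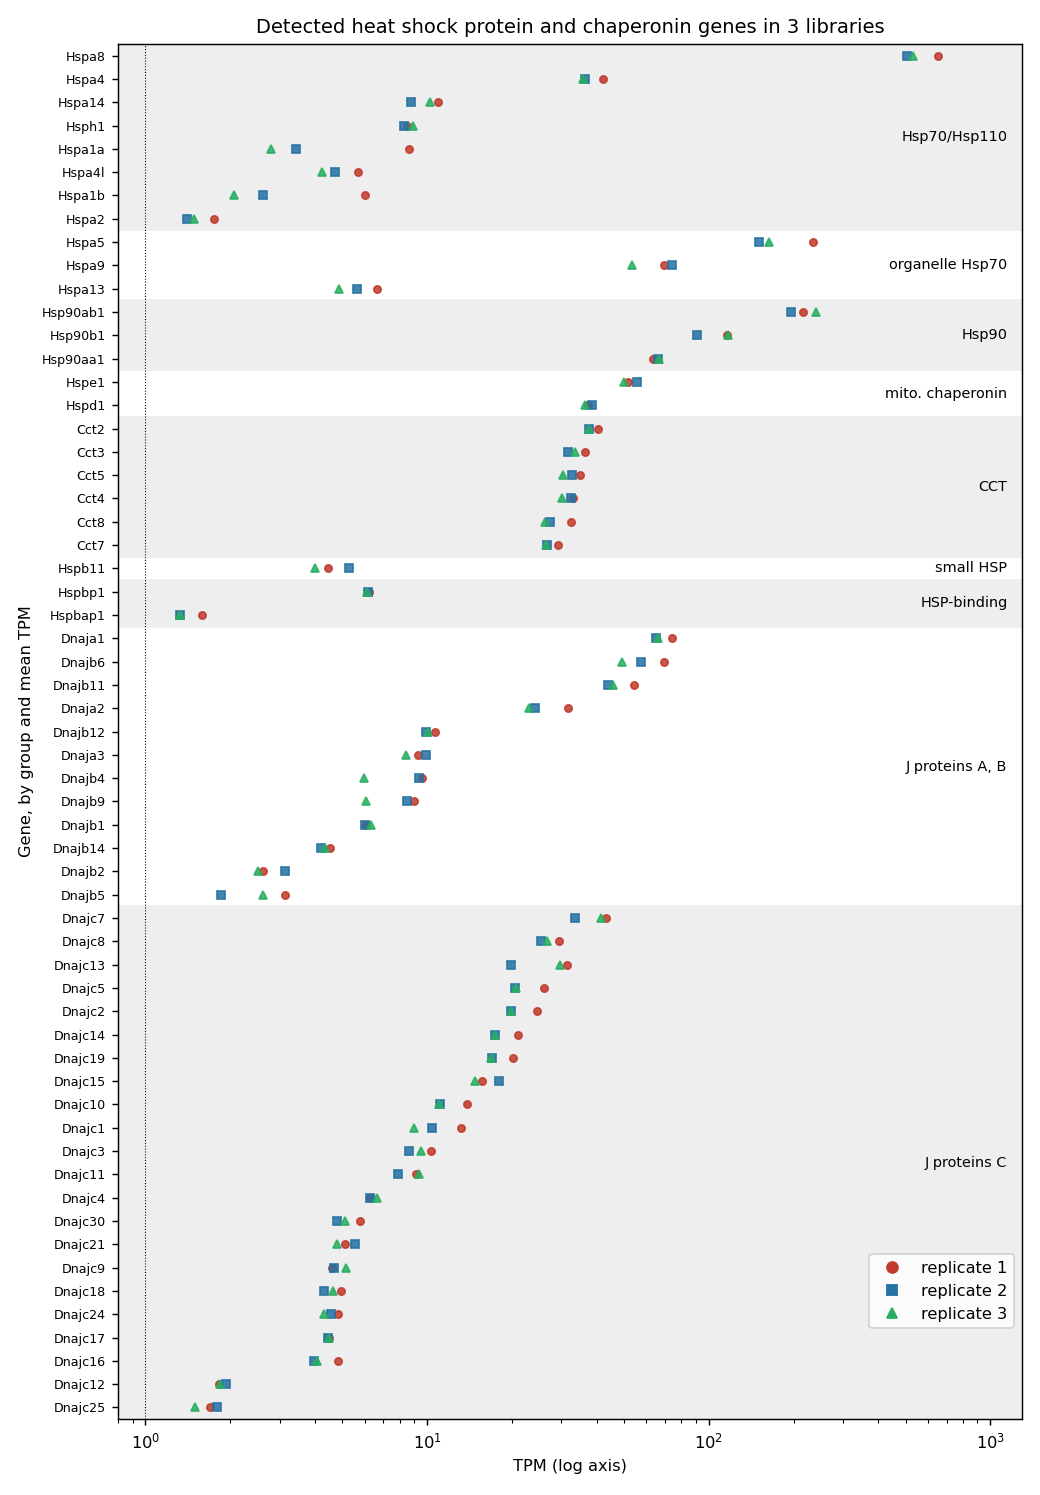
TPM (log axis) of the 59 detected members in the 3 libraries, grouped by role and ordered by mean TPM within a group; each symbol is 1 library and the dotted line is the detection threshold of 1 TPM. Hspa8 stands alone at 508 to 654 TPM, the 6 detected CCT genes lie between 26.3 and 40.5 TPM, and Hspa1a and Hspa1b are the genes whose 3 symbols are farthest apart.

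The cytosolic Hsp70 pool was made almost wholly of the constitutive gene. Hspa8 (chromosome 9, 40800984 to 40810087; all gene positions are on mm10 with annotation M21), the housekeeping Hsp70 that folds new proteins and strips clathrin from vesicles, had 654, 508 and 531 TPM in replicates 1, 2 and 3, more than any other member in each library. It alone held 26.7% ± 1.04 (SD, n = 3) of the TPM of all 82 genes. The stress-inducible pair Hspa1a and Hspa1b, which encode the Hsp70 that heat shock calls up, together had 14.7, 6.04 and 4.86 TPM, a log2 ratio to Hspa8 of -6.21 ± 0.67 (SD, n = 3) that was below 0 in 3 of 3 libraries. The other Hsp70 genes of this compartment were low. Hspa14, whose product sits at the ribosome, had 10.9, 8.75 and 10.3 TPM, and Hspa2, known from the testis, was at 1.41 to 1.75 TPM, while Hspa1l was not detected. Hspa14, like the J protein genes Dnaja3 and Dnajc14, overlaps another gene on its own strand (Gm45902, Vasn and Sarnp, in that order), so the reads of these genes may be shared. Neither of the distant relatives Hspa12a and Hspa12b was detected.

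Among the Hsp110 genes, whose products reload Hsp70 with ATP, Hspa4 led with 42.1, 36.4 and 35.8 TPM in replicates 1, 2 and 3. It stood above the heat-inducible Hsph1, at 8.50, 8.30 and 8.89 TPM, by 2.15 ± 0.15 (log2, SD, n = 3) in 3 of 3 libraries. Hspa4l had 5.70, 4.70 and 4.23 TPM. Hspbp1, another exchange factor of Hsp70, had 6.23, 6.16 and 6.12 TPM.

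Hsp90 levels were those of the constitutive isoform first and the inducible one well below. Hsp90ab1 (chromosome 17, 45567775 to 45573271), the constitutive cytosolic Hsp90, had 215, 196 and 241 TPM in replicates 1, 2 and 3, and was highest in replicate 3. Hsp90aa1 (chromosome 12, 110690605 to 110702728), its inducible counterpart, had 63.2, 66.0 and 66.9 TPM; less the shift of the median gene it was lowest in replicate 1, with a deviation (defined with Hspa1a and Hspa1b) of -0.30 (log2). The log2 ratio of Hsp90aa1 to Hsp90ab1 was -1.73 ± 0.15 (SD, n = 3), with the same order in 3 of 3 libraries. Hsp90b1 (Grp94), the Hsp90 of the ER on which Toll-like receptors depend to fold, had 116, 90.6 and 117 TPM, lowest in replicate 2. Together the 3 genes summed to 391 ± 36.6 TPM.

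Endoplasmic reticulum chaperones were the other abundant part, and all 9 members of a list of ER chaperones, most of them known to follow ER stress (Hspa5, Hsp90b1, Hspa13, Dnajb9, Dnajb11, Dnajc1, Dnajc3, Dnajc10 and Dnajc25) were detected. Hspa5 (BiP; chromosome 2, 34771970 to 34777547), the Hsp70 of the ER, had 235, 151 and 163 TPM in replicates 1, 2 and 3, and replicate 1 stood clear of the rest. Its log2 ratio to Hspa8 was -1.64 ± 0.15 (SD, n = 3). Of its J proteins the soluble Dnajb11 had 54.5, 43.9 and 45.7 TPM. Dnajb9, which helps switch off the sensor Ire1, had 8.99, 8.49 and 6.06 TPM, lowest in replicate 3. Dnajc10, a disulphide reductase, was at 11.0 to 13.8 TPM, Dnajc3, an inhibitor of the kinase Perk, at 8.65 to 10.4 TPM, and the membrane J protein gene Dnajc1 at 13.2, 10.4 and 8.99 TPM. Hspa13, a microsomal Hsp70, had 6.64, 5.63 and 4.85 TPM. The ratio of Hsp90b1 to Hspa5 moved between libraries, with log2 values of -1.01, -0.74 and -0.48 in replicates 1, 2 and 3.

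ER stress elements, the site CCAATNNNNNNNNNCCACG on either strand, stood in the 250 bases before a RefSeq start of 3 of the 67 members for which RefSeq (GRCm38.p6) gave a promoter, Hspa5, Hsp90b1 and Dnajc3, or 4.48%, beside 0.130% of 27025 genes. The 27025 genes were not limited to protein-coding ones, unlike the members, and a gene counted if the bases before any of its starts matched. A match describes the letters and is not evidence of binding. The stretches are shown because these 3 genes are ER chaperones that differ widely in level, with the element in capitals and written 5′ to 3′ along the gene's strand. Counted from the RefSeq start, which can differ from that of annotation M21, the element of Hspa5 (chr2:34772020-34772049, + strand) starts 65 bases before, those of Hsp90b1 (chr10:86705525-86705664, - strand) 212 and 107 bases, the second inverted, and that of Dnajc3 (chr14:118937812-118937871, + strand) 105 bases. In annotation M21 Hspa5 starts farther upstream, so its element lies 55 bases past that start and its stretch overlaps 1 annotated exon.
Hspa5: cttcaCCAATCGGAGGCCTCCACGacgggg
Hsp90b1: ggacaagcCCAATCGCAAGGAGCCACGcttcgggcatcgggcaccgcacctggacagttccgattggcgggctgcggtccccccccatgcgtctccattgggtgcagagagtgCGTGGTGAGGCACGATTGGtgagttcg
Dnajc3: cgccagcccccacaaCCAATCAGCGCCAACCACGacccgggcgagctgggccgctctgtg

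In mitochondria the matrix Hsp70 and the chaperonin pair were all present. Hspa9 (mortalin), the Hsp70 that pulls proteins through the inner membrane, had 69.3, 73.8 and 53.3 TPM in replicates 1, 2 and 3, lowest in replicate 3. Hspd1, the chaperonin ring, had 37.3, 38.5 and 36.5 TPM, and its lid Hspe1 had 51.6, 55.7 and 49.8 TPM. The 2 genes kept a near-constant ratio, with a log2 value of Hspe1 to Hspd1 of 0.48 ± 0.043 (SD, n = 3), and their ranges over the libraries did not overlap. They lie head to head on chromosome 1 and overlap on opposite strands, Hspd1 from 55077835 to 55088243 and Hspe1 from 55088132 to 55091307. In RefSeq the Hspe1 start, 55088148, lies 216 bases from the inner Hspd1 start, 55087932, while the outer Hspd1 start is 55088243. Whether the authors' counting used strand is not stated, so reads in the overlap could go to either gene.

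The cytosolic chaperonin CCT, a double ring of 8 subunit kinds that folds actin and tubulin, had its detected members at similar levels. In replicates 1, 2 and 3 Cct2 had 40.5, 37.5 and 37.4 TPM, Cct3 had 36.4, 31.6 and 33.6 TPM, and Cct5 had 34.8, 32.8 and 30.5 TPM. Cct4 had 33.0, 32.4 and 30.1 TPM, Cct8 had 32.4, 27.4 and 26.3 TPM, and Cct7 had 29.1, 26.6 and 26.4 TPM. Cct6a falls outside the 82 genes because annotation M21 types it as a processed transcript, but it stood among them at 36.8, 31.4 and 38.9 TPM, and so did Tcp1, the subunit with another name, at 34.4, 32.9 and 30.5 TPM. The highest of the 7 genes Cct2 to Cct8 exceeded the lowest by 1.43-fold ± 0.048 (SD, n = 3), and by 1.41-fold ± 0.017 without Cct6a, a value added after the data were seen. In a second quantification, the read-based table described below, the ratio over the 7 genes was wider, 1.78-fold ± 0.15. Cct6b, the copy known from the testis, and Cct8l1 were not detected.

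**Figure D2:**
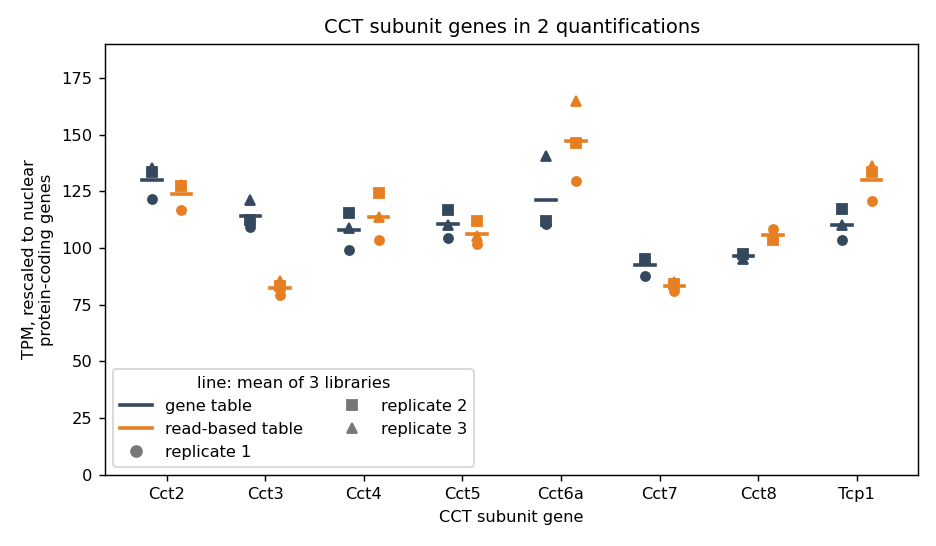
Level of the 8 CCT subunit genes in the gene table and in the read-based table, with TPM rescaled to a fixed total over nuclear protein-coding genes; symbols are libraries and lines their means. In the gene table the means run from 92.6 for Cct7 to 130 for Cct2, and in the read-based table from 82.5 for Cct3 to 147 for Cct6a; Cct6a and Tcp1 are not among the 82 genes.

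The J proteins were numerous and mostly modest in level, with 34 of 45 genes detected. Their summed TPM was 0.597 ± 0.031 (SD, n = 3) times that of the Hsp70 and Hsp110 genes. Dnaja1, a cytosolic class A partner of Hsp70, had 73.8, 65.0 and 65.8 TPM in replicates 1, 2 and 3, above its paralogue Dnaja2, at 31.7, 24.2 and 23.0 TPM, by 1.39 ± 0.15 (log2, SD, n = 3). The mitochondrial Dnaja3 had 9.29, 9.89 and 8.42 TPM, and Dnaja4 was not detected. In class B, Dnajb6, which suppresses protein aggregation, led with 69.4, 57.3 and 49.2 TPM, lowest in replicate 3. The heat-inducible Dnajb1 had 6.07, 6.04 and 6.30 TPM, and a deviation of -0.26 (log2) in replicate 1. Dnajb4 had 9.63, 9.39 and 5.95 TPM, lowest in replicate 3. The other detected class B genes were the ER membrane proteins Dnajb12 and Dnajb14, Dnajb2 and Dnajb5, at 1.86 to 10.7 TPM, and Dnajb3, Dnajb7, Dnajb8 and Dnajb13 were not detected.

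Class C, which shares little beyond the J domain, had 22 of 28 genes detected. Dnajc7, which carries TPR domains that hold Hsp70 and Hsp90, had 43.3, 33.5 and 41.6 TPM in replicates 1, 2 and 3. The spliceosome-associated Dnajc8 had 29.4, 25.4 and 26.6 TPM. Dnajc13, an endosome protein that recruits Hsp70 to clathrin, had 31.3, 19.9 and 29.6 TPM, and its replicate 2 stood below the rest. Between 10 and 30 TPM on average were also the vesicle protein Dnajc5, the ribosome-associated Dnajc2, the ER membrane protein Dnajc14, the mitochondrial import subunit Dnajc19 and its relative Dnajc15. Dnajc4, Dnajc9, Dnajc11, Dnajc12, Dnajc16, Dnajc17, Dnajc18, Dnajc21, Dnajc24 and Dnajc30 were detected at 1.83 to 9.37 TPM. Dnajc6, the neuronal partner of clathrin uncoating, was among the 6 that were not, with Dnajc5b, Dnajc5g, Dnajc22, Dnajc27 and Dnajc28.

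Small heat shock proteins, which hold unfolded proteins without ATP, were mostly under the detection threshold. Of 8 genes Hspb11 alone was detected, at 4.44, 5.29 and 4.0 TPM in replicates 1, 2 and 3; its product is better known as a subunit of intraflagellar transport. Hspb1, the major small heat shock protein of stressed cells, had 0.13, 0.05 and 0.00 TPM. Hspb2, Hspb3, Hspb6, Hspb7, Hspb8 and Hspb9 were not detected, and neither were the related Cryab, Cryaa and Odf1.

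Heat shock elements were searched as 2 inverted units, GAANNTTC or TTCNNGAA on either strand, in the same 250 bases. Of 67 members with a promoter 17 held one (25.4%), beside 14.5% of the same 27025 genes, which were not limited to protein-coding ones. The form with 3 units, GAANNTTCNNGAA or TTCNNGAANNTTC, which contains the former, was found in 3 members, Dnajb6, Hspd1 and Hspe1 (4.48%), beside 0.514% of genes. Those of Hspd1 and Hspe1 are the same bases, from 55088059 to 55088076 on chromosome 1, read from either side, so the 3 genes hold 2 separate sites. The shared bases lie between the inner Hspd1 start, 55087932, and the Hspe1 start in RefSeq. By the outer Hspd1 start, 55088243 in RefSeq and in annotation M21, they lie inside Hspd1. The stretches below are shown because their genes range from abundant to undetected. Elements are in capitals, 5′ to 3′ along the gene's strand; the first capital lies 89 bases before the RefSeq start of Hspe1 (chr1:55088053-55088082, + strand), 46 before that of Dnajb6 (chr5:29735844-29735873, + strand), 54 before that of Hsph1 (chr5:149636351-149636380, - strand) and 117 before that of Hspb1 (chr5:135887782-135887861, + strand). By annotation M21 the element of Dnajb6 lies 164 bases past the gene's start and that of Hsph1 7 bases past it; their stretches overlap 2 annotated exons each, and that of Hspe1 overlaps 1.
Hspe1: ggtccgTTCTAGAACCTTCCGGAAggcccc
Dnajb6: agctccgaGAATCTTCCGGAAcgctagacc
Hsph1: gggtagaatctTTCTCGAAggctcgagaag
Hspb1: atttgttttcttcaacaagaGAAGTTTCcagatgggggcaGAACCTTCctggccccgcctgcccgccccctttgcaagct
These 4 genes averaged 52.4, 58.6, 8.56 and 0.060 TPM. They were picked for their range of levels, and Hsph1 and Hspb1 hold only the form with 2 units. No relation between element and level can be read from them.

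Of the detected members Hspa1a and Hspa1b differed most between the libraries. In replicates 1, 2 and 3 the level of Hspa1a (chromosome 17, 34969190 to 34972156) was 8.65, 3.43 and 2.79 TPM. That of Hspa1b (chromosome 17, 34956436 to 34959238) was 6.03, 2.61 and 2.07 TPM. Replicate 1 was highest for both, and the authors' bounds of TPM for Hspa1a, of a level not stated, 7.96 to 8.98 in replicate 1, 3.11 to 3.65 in replicate 2 and 2.46 to 3.01 in replicate 3, did not overlap. These bounds hold the error of quantifying 1 library and not the spread between cultures. The summed pair was 2.43-fold and 3.02-fold higher in replicate 1 than in replicates 2 and 3, where Hspa8 was 1.29-fold and 1.23-fold higher. The 2 genes are near-identical copies, so the split between them is uncertain and their sum is the safer value. They were singled out after their values were seen.

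Their promoters are nearly the same sequence as well. Over the 250 bases before the start 247 are identical (98.8%), and the differences, as the Hspa1a base, the position counted from 1 at the 5′ end of the stretch and the Hspa1b base, are C44T, T47C and T249G. Both stretches are printed, for Hspa1a (chr17:34972157-34972406, - strand) and Hspa1b (chr17:34959239-34959488, - strand), because this pair carries the largest difference between libraries among detected members; the capitals mark the heat shock element of 2 units, which starts 104 bases before each gene.
Hspa1a: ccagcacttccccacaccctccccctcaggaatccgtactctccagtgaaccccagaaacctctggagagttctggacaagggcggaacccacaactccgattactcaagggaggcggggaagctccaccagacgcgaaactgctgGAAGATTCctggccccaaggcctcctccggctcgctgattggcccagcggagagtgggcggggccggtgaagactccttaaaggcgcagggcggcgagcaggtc
Hspa1b: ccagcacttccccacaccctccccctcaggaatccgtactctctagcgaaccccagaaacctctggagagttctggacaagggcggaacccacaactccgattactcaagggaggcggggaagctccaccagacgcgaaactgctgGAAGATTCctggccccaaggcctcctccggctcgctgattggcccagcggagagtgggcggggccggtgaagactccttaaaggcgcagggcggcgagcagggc

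To set this beside other genes, the deviation of a library was taken as its log2 TPM less the mean of the other libraries and less the median of that difference over the 9106 detected protein-coding genes. In replicate 1 the deviation was 1.25 for Hspa1a and 1.14 for Hspa1b. They were the only 2 of 59 members over 1.5-fold higher in replicate 1, where 1.48% of all detected genes were. In replicate 3, 3 members were over 1.5-fold lower, Hspa1a, Hspa1b and Dnajb4, where 1.87% of detected genes were. Dnajb4, at -0.59, lay at the edge of the threshold of 0.585. In any library and direction the count was the same 3 of 59, beside 6.13% of detected genes, and without replicate 1 it was 1. By SD of log2 TPM Hspa1a and Hspa1b ranked 26 and 47 among the 9106 genes.

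The other detected members of a heat-inducible list, which includes the constitutive Hspa8, are given as values. Whether a heat shock response took part was not tested. These 8 (Hsph1, Dnajb1, Dnaja1, Hsp90aa1, Hspa8, Hspa4l, Hspd1 and Hspe1) had deviations from -0.30 to 0.12 in replicate 1. The 5 to 95 percentiles of all detected genes were -0.32 to 0.38. Of the 8, 6 were below 0, where the median of all detected genes lies at 0 by definition. Hsf1 itself had 4.83, 4.95 and 5.17 TPM in replicates 1, 2 and 3. Hsf2 had 3.34, 2.97 and 3.12 TPM, while Hsf4, at 1.05, 0.96 and 1.03 TPM, and Hsf5 were not detected. Replicate 1 also had the largest share of counts on rows that name no gene, 0.356% against 0.125% and 0.104%, and the largest protein-coding share of TPM; the part of either in the level of Hspa1a and Hspa1b was not tested.

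**Figure D3:**
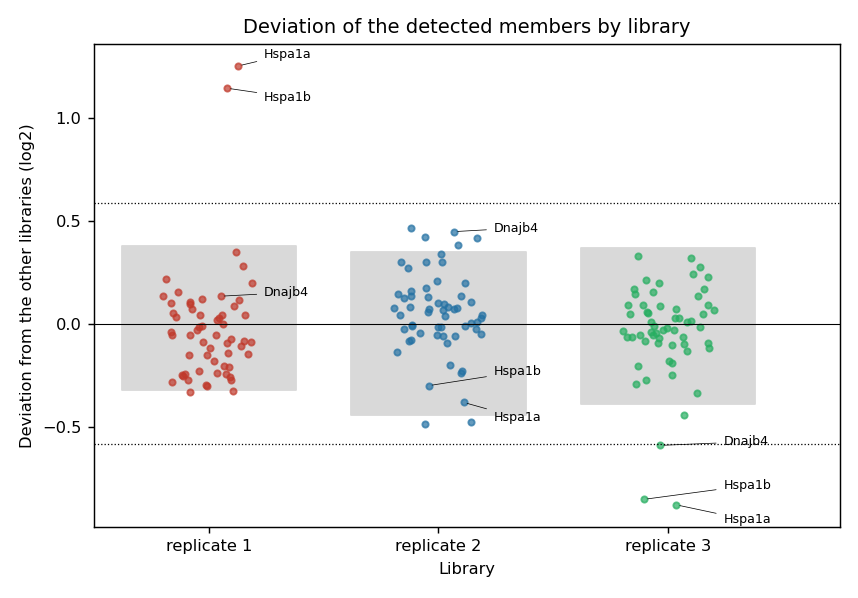
Deviation (log2) of the 59 detected members in each library from the other libraries, less the median over all detected protein-coding genes; each point is a gene, the grey boxes hold the 5 to 95 percentiles of all 9106 genes and the dotted lines mark 1.5-fold. Hspa1a and Hspa1b stand at 1.25 and 1.14 in replicate 1 and at -0.88 and -0.85 in replicate 3, while the rest lie between -0.59 and 0.46.

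Over all detected members the spread between libraries was modest. The median SD of log2 TPM over the 59 detected members was 0.146, beside 0.181 over all detected protein-coding genes, and 40 members lay at or below that overall median. These SDs are of TPM as deposited and include the shift of the median gene in replicate 1, so a low SD is not by itself tighter replication. Hspbp1, with an SD of 0.0130, had a deviation of -0.21 in replicate 1, where 23 of the 59 members had a deviation above 0. The median deviation of all detected genes is 0 by definition. Without replicate 1 the members' median SD was 0.0702, with no value over all genes beside it. Of members with a mean of at least 5 TPM the widest spreads, after Dnajb4, were those of Dnajc13, Hspa5, Dnajb9, Dnajc1, Dnaja2, Dnajb6 and Hspa9, with SDs from 0.356 to 0.249. Hspa5, the most abundant of these, was 1.55-fold higher in its highest than in its lowest library in TPM as deposited. Rescaled to nuclear protein-coding genes it stood at 704, 538 and 590 TPM in replicates 1, 2 and 3. Its deviation in replicate 1, 0.35, lay inside the 5 to 95 percentiles of all detected genes. Among the most abundant members the order was firm in a few places. Hspa8 stood above Hsp90ab1, Hspa5 above Hsp90b1, Hsp90b1 above Dnaja1, Dnajb11 above Dnajc7 and Hspd1 above Cct3 with no overlap of their ranges, while the ranges of the other neighbours with a mean of at least 30 TPM overlapped.

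Partners of these chaperones were present almost throughout, by lists of genes outside the naming rule. Of 36 cochaperones 33 were detected, led by the Hsp90 activator Ahsa1 at 61.8 ± 0.976 TPM (SD, n = 3), the exchange factor Bag1 at 60.0 ± 8.30 TPM, the Hsf1 regulator Hsbp1 at 57.8 ± 4.46 TPM and the mitochondrial Fkbp8 at 54.9 ± 3.40 TPM; Bag2 was not detected. All 17 prefoldin, CCT and tubulin cofactor genes were, led by Tbca, Pfdn5, Tbcb and Tcp1. Of 18 ER folding genes 17 were detected, led by the lectin chaperones Calr at 199 ± 38.1 TPM and Canx at 107 ± 15.4 TPM, then the disulphide isomerases Pdia3 and P4hb. The collagen chaperone Serpinh1 was at or under 0.01 TPM. All 10 mitochondrial partners were detected, led by Htra2, Hscb, Trap1 and Lonp1, with the mitochondrial Hsp90 Trap1 at 9.54, 9.66 and 10.7 TPM. No detected gene of these lists passed 1.5-fold in any library, beside 6.13% of all detected genes; 41.4% of all protein-coding genes were detected.

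Gene totals were also read in another quantification. A second deposited table, made from the reads without an alignment file and called read-based here, was set beside the gene table after rescaling to protein-coding genes. For the 59 detected members the log2 ratio of read-based to gene table ran from -0.47 for Cct3 to 0.58 for Hspbap1, with a median of -0.013. No member differed by over 1.5-fold, beside 2.56% of detected genes; Hspbap1, at 0.584, lay just under the threshold of 0.585. Hspa1a and Hspa1b kept their order of libraries there, with a sum of 5.26, 2.57 and 1.71 TPM in replicates 1, 2 and 3 on the scale of that table.

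Transcripts were less settled than genes. Among the 30 members with a mean of at least 10 TPM, 16 had at least 90% of their TPM on annotated protein-coding transcripts in both the alignment-based and the read-based transcript table, and 4 (Dnajc7, Hspa4, Dnajc5 and Dnajc15) had under 70% in both. For Dnajc15 the coding transcript held 8.15% ± 1.07 (SD, n = 3) of TPM by alignment and 6.28% ± 1.20 by reads, with the rest on a transcript of 674 bases annotated for nonsense-mediated decay (NMD), Dnajc15-201, and a processed transcript of 419 bases, Dnajc15-203. By counts, however, the coding share of Dnajc15 was 61.4% ± 3.74, since TPM weighs short transcripts up. For Hspa5, the NMD transcript Hspa5-204, of 477 bases, held 17.8% ± 3.90 by alignment and 22.8% ± 0.440 by reads, while coding transcripts had 97.7% ± 0.678 of the counts. The retained-intron transcript Hspa4-202, of 630 bases, held 36.1% ± 1.19 and 40.6% ± 3.04 of TPM, and the NMD transcript Dnajc5-204 held 42.1% ± 1.05 and 49.0% ± 0.904. By counts in the alignment-based table coding transcripts had 91.9% ± 2.39 for Hspa4, 78.2% ± 3.29 for Dnajc7 and 67.4% ± 1.30 for Dnajc5, so only Dnajc5 and Dnajc15 of the 4 were under 70% there.

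For 9 transcripts the 2 tables differed by over 20 percentage points, so their shares are not settled by these data. Hsp90aa1-201 held 34.4% ± 9.61 (SD, n = 3) by alignment and 72.2% ± 7.71 by reads, and Hsp90aa1-202 held 44.2% ± 6.53 and 16.0% ± 0.746. Hspa8-202 held 37.9% ± 1.41 by alignment and 15.8% ± 2.30 by reads. Cct3-203, a retained-intron transcript of 472 bases, held 29.4% ± 4.01 and 1.57% ± 2.73, and Cct8-209, an NMD transcript, 1.56% ± 2.71 and 26.4% ± 0.857. Cct3 was also the member with the lowest read-based gene level relative to the gene table. Processed pseudogenes named after members took few reads: of 15 such genes Hspd1-ps3 alone had over 10 counts in every library, with 34.5, 32.6 and 27.5 counts, and the others had at most 7.08.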

How the data were processed

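Total RNA of 3 libraries of 1 group was used, with the gene table and 2 transcript tables deposited for each. The authors' gene table holds expected counts, TPM, FPKM and other values, the bounds of TPM; its layout, per the file headers, is RSEM's. One deposited transcript table was made from the same alignments and the other, with estimated counts and TPM in the layout of kallisto, from the reads. Accompanying text files name mm10 and annotation M21; the aligner with its version is not given in the sources used here. Rows naming no gene (0.356%, 0.125% and 0.104% of counts) were left out.

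Members were matched by symbol and annotated type. Members and lists were chosen with earlier results of these data known. All members could be named; values per library are given for those with a mean of at least 30 TPM, the 3 highest of each group and the 8 widest at 5 TPM or more (Dnaja and Dnajb genes as 1 group), and of partner lists for the Hsf genes and the 4 highest; Cct6a, Cct7, Cct8, Dnaja3, Dnajb1, Hspa1a, Hspa1b, Hspa4l, Hspb1, Hsph1 and the genes nearest the detection threshold were added after their values were seen. Promoters came from RefSeq (GRCm38.p6; 67 of 82 members matched; not Cct4, Dnajc2, Dnajc5, Dnajc5b, Dnajc11, Dnajc12, Dnajc18, Dnajc22, Dnajc30, Hsp90aa1, Hsp90ab1, Hspa8, Hspa9, Hspa13 or Hspb2). Alternatives used edgeR 4.0.16 (TMM) and DESeq2 1.42.0 size factors (R 4.3.3) for scaling only, with expected counts first rounded. The calculation of the deviations was run on simulated counts with changes larger than 1.5-fold and a spread set in advance. This does not cover genes that change by close to 1.5-fold or the spread between real cultures. Python 3.11.15 with numpy 2.4.6, pandas 2.3.3 and matplotlib 3.10.9 was used.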

Additional observations from a re-analysis of the deposited data

How the results depend on the processing

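Of 80 alternatives of 10 results 67 stayed within their spread or within 1.5 times the count, 13 moved and none reversed. The 10 results leave out the mean TPM of single members, which depended on the scale of the table. Read-based TPM as deposited was 206 for Hspa8 and 82.6 for Hsp90ab1, against 564 and 217 in the gene table. After rescaling to protein-coding genes no detected member differed by over 1.5-fold, beside 2.56% of detected genes. The read-based alternative used that table's TPM as deposited, without rescaling, so the cut of 1 TPM was stricter and 52 members were detected. With it the median level of the detected members above all detected genes was 0.59 (log2), a value over fewer genes. The CCT ratio was 1.78-fold and the log2 ratio of Hspa5 to Hspa8 -1.48. With FPKM the median level difference was 0.37 and the members' share, of FPKM rather than counts, 0.710%. Without a filter on low values, on the log2(TPM + 1) scale, the median level difference was 2.49, since undetected genes enter it. At a threshold of 5 TPM 0 members passed 1.5-fold, since Hspa1a and Hspa1b are then not detected and Dnajb4 no longer passed. Leaving out each library in turn, the median SD ran from 0.0702 to 0.148 and the members past 1.5-fold from 1 to 2; the lowest values were those without replicate 1. Alternatives chosen after seeing the data were the CCT ratio without Cct6a, 1.41-fold, the same over protein-coding transcripts, 1.76-fold by alignment and 1.69-fold by reads, the members past 1.5-fold without Hspa1a and Hspa1b, 1, and the log2 ratio of Hspe1 to Hspd1 with the transcript Hspd1-201 alone, 0.75. The causes of the other moves were not tested. The number of detected members ran from 40 at 5 TPM to 66 at 10 counts or more in every library. No paired analysis was possible because all libraries belong to 1 group.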

Other observations

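Other genes shared the high level of Hspa1a and Hspa1b in replicate 1; they were picked after their values were seen and are given as values. Of 9106 detected protein-coding genes 12, the pair included, had a deviation in replicate 1 at least that of Hspa1b. Nos2, the inducible nitric oxide synthase of activated macrophages, had 15.3, 5.64 and 2.24 TPM in replicates 1, 2 and 3. Ptges, the inducible prostaglandin E synthase, had 11.0, 3.33 and 4.15 TPM. Malt1, a scaffold and protease of NF-kB signalling, had 51.2, 13.7 and 23.6 TPM, and Dusp4, a phosphatase of MAP kinases, 5.36, 3.01 and 1.01 TPM. The others were Gm14399, Tnfrsf26, AA467197, Gm17334, Ly6i and Tmem176a, so the genes with values are a choice from the 12. The patterns over the libraries differed. In replicate 2 the deviation was 0.08 for Nos2 and 0.51 for Dusp4, but -0.38 for Hspa1a. In replicate 3 it was -1.97, -1.91 and -0.88, in that order. Hspa1a and Hspa1b were the only members of the 82 genes among the 12.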
